A study of Rattus norvegicus with 8 samples.

Results

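The genes described here make, bind and break down hyaluronan, the long sugar chain that fills the space between cells and between collagen bundles. They are 10 of the 15590 genes of the table: the hyaluronan synthases Has1, Has2 and Has3, the binders Cd44, Tnfaip6, Hapln1 and Vcan, and the breakdown genes Hyal1, Hyal2 and Cemip. All 10 had a row and passed the filter on low values, as did 13863 genes in all. They were chosen by their role and with their values in this comparison already known. Their levels and differences are therefore a description, and no p-value is given for them.

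The study asked how the transcriptome of the rat Achilles tendon responds to running. Polyadenylated RNA was sequenced from the tendons of wild-type male Sprague-Dawley rats aged 8 to 10 weeks. Of the libraries, 4 came from rats killed immediately after 1 h on an inclined treadmill (0 h p.r., post-run) and 4 from naïve controls (NC) with normal cage activity. Airflow and, where needed, mild electric shocks were part of the running protocol. The labels number 4 libraries in each group and do not say whether each came from 1 rat, so n counts libraries and the SD may be partly technical. The methods place the killing of the NC rats with that of a later post-run group while the labels give no delay, so whether clock time differed between the groups is not settled. The libraries held 10660131 to 17464752 reads in the listed genes. Levels are in FPKM (fragments per kilobase of transcript, scaled to sequencing depth), which are per length, so that genes can be compared with each other.

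Hyaluronan is spun out through the plasma membrane by the synthases, which use UDP-glucuronic acid and UDP-N-acetylglucosamine from the cytosol. Outside the cell it is held at the surface by the receptor Cd44, bound to the proteoglycan versican (Vcan) by the link protein Hapln1, and loaded with inter-alpha-inhibitor heavy chains by Tnfaip6 (TSG-6). Hyal2 at the cell surface and Hyal1 in lysosomes cut the chain, and Cemip (KIAA1199, HYBID) promotes its breakdown by fibroblasts. In tendon, hyaluronan is known as a lubricant between gliding surfaces and as a component of the loose matrix around fascicles.

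Promoters are shown for the members that passed both thresholds used below, with their RefSeq start sites in build GRCr8. RefSeq promoters were found for 8 of the 10 genes, and Has2 and Has3 were not among them. Each line gives the 250 bases before the start site, read 5′ to 3′ on the gene's strand, with a motif match in capitals. The Has1 window is chr1:67378445-67378694 on the minus strand, the Tnfaip6 window chr3:56911148-56911397 on the plus strand and the Cd44 window chr3:109699425-109699674 on the minus strand.
Has1: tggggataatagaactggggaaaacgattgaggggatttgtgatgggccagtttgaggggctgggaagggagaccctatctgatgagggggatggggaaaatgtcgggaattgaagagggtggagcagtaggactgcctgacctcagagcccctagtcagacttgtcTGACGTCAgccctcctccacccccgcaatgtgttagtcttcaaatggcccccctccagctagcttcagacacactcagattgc
Tnfaip6: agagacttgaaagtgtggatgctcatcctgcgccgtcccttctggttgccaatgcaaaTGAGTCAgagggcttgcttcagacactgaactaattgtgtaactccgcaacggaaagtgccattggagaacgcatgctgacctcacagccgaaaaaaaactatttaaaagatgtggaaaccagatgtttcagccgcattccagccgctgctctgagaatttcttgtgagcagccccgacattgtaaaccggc
Cd44: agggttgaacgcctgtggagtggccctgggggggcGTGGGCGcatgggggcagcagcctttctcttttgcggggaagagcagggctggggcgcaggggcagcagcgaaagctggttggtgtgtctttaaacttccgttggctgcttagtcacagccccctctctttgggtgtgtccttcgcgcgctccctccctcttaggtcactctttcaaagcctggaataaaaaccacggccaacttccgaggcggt

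The capitals in Has1 are a cAMP response element (TGACGTCA), 83 to 76 bases before the start site, a motif that 1.59% of the 33469 rat promoters of this length hold. In Tnfaip6 they are an AP-1 motif (TGANTCA) 192 to 186 bases before the start site, held by 6.34% of promoters. In Cd44 they are an EGR motif (GTGGGCG) 215 to 209 bases before it, held by 6.27%. RefSeq also annotates longer Has1 and Cd44 transcripts that start further upstream, so those windows lie partly inside them. Among the other matched members, Cemip held the EGR motif on the opposite strand and a TATA motif (TATAAA, in 12.9% of promoters), and Hyal2 held a STAT motif (TTCNNNGAA, in 7.67%). The string GGGNNTTCC, searched as an NF-kB motif and held by 5.09% of promoters, was in none of the 8 windows. Other forms of the NF-kB motif were not searched. Both strands were searched, the motifs were picked with the expression values known, and no member held overlapping matches. A match describes these letters and is not a binding site.

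Hyal2 had the highest mean level of the members both at rest and after running. After running its libraries overlapped those of Has1, Tnfaip6 and Cd44. Without 0 h p.r. replicate 3 the mean after running was 55.8 FPKM for Hyal2 and 59.5 FPKM for Has1. The mean NC level was 47.4 FPKM for Hyal2, 17.6 for Cd44, 10.1 for Hyal1, 8.07 for Vcan, 6.61 for Tnfaip6, 5.93 for Hapln1, 4.84 for Has1, 3.16 for Has2, 2.17 for Cemip and 0.957 for Has3. Hyal2 was the only member whose NC libraries all lay above those of the next gene in that order. Each other pair of neighbours overlapped. After running the order was Hyal2 at 66.0 FPKM, Has1 at 54.2, Tnfaip6 at 52.2, Cd44 at 39.5, Hapln1 at 19.5, Vcan at 16.0, Hyal1 at 9.16, Has2 at 6.08, Cemip at 5.15 and Has3 at 0.810. Has1 thus went from percentile 34.9 to percentile 90.0 of the levels of all tested genes, and Tnfaip6 from 43.6 to 89.6. Has3 stayed at the bottom, with every library below every library of Cemip after running.

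**Figure D1:**
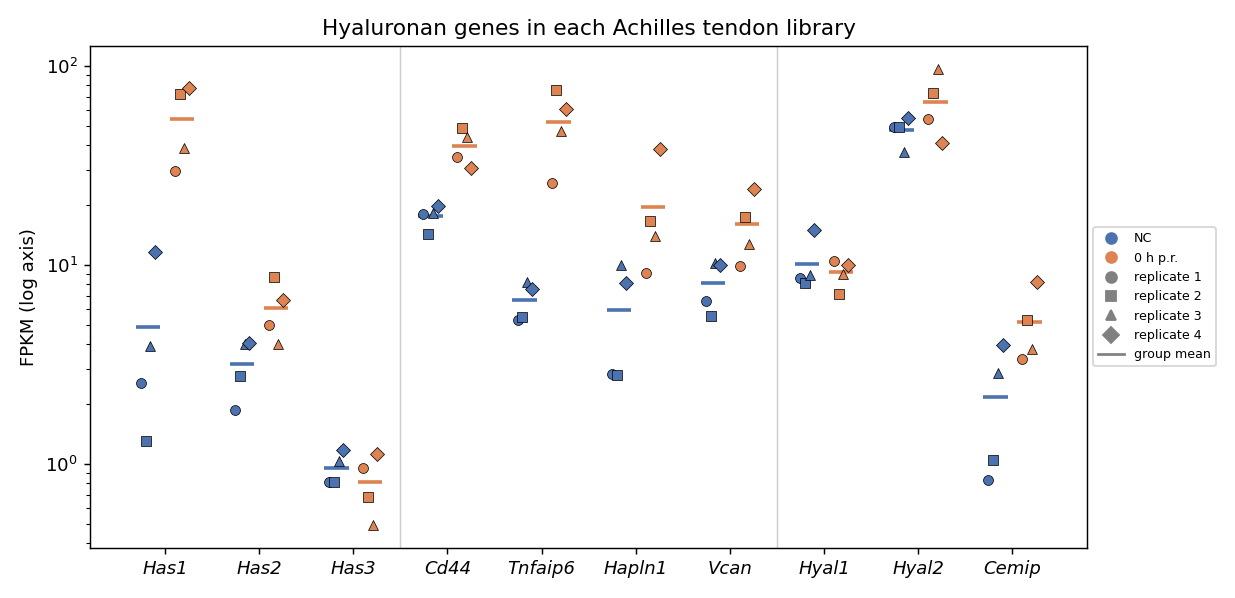
FPKM of the 10 hyaluronan genes in each library, on a log axis, with NC and 0 h p.r. libraries as points shaped by replicate, and the group means as horizontal bars. The NC and 0 h p.r. points of Has1, Tnfaip6 and Cd44 do not overlap, and those of the other 7 genes do.

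Of the synthases, the groups of Has1 did not overlap and those of Has2 and Has3 did. Has1 (ENSRNOG00000010994), a synthase known for induction by inflammatory signals, had 2.55, 1.3, 3.90 and 11.6 FPKM in NC replicates 1 to 4. After running it had 29.5, 72.02, 38.5 and 76.9 FPKM. The groups did not overlap, and even NC replicate 4, well above the other NC libraries, was below the lowest 0 h p.r. library. The means were 4.84 ± 4.63 and 54.2 ± 23.7 FPKM (SD, n = 4), a ratio of 11.2. Without NC replicate 4 the NC mean was 2.58 FPKM and the ratio 21.0. On the log2(FPKM + 0.5) scale used for all fold changes, which understates the change of low genes, the difference was 3.61 (SE 0.55, 95% interval 2.37 to 4.86), the fifth highest of the tested genes. Between 27 and 362 reads lay behind the NC values, and 823 to 2911 behind those after running.

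Has2 (ENSRNOG00000004854), the synthase that embryos cannot do without, had 1.86, 2.76, 4.0 and 4.02 FPKM in NC. After running it had 4.96, 8.73, 4.0 and 6.62 FPKM. Replicate 3 lay within the NC range and the other 3 libraries above it. The log2 difference was 0.84 (SE 0.28, 95% interval 0.21 to 1.47). Has3 (ENSRNOG00000059362) had 0.809, 0.813, 1.04 and 1.17 FPKM in NC and 0.952, 0.681, 0.494 and 1.11 FPKM after running. These groups overlapped widely, with a log2 difference of -0.17 (95% interval -0.62 to 0.28), and as few as 44 reads lay behind a value.

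The make-up of the synthase mRNA pool differed accordingly. Has1 made up 48.9%, 26.7%, 43.6% and 69.1% of the summed synthase FPKM in the NC libraries and 83.3%, 88.5%, 89.6% and 90.9% after running. Its share was above the highest NC share in all 4 libraries after running, with means of 47.1 ± 17.5% in NC and 88.0 ± 3.30% after running (SD, n = 4). A share near its upper bound can vary little, and the SDs of the shares are not compared. The share of Has2 was 40.2 ± 13.8% in NC and 10.5 ± 2.63% after running, and that of Has3 was 12.7 ± 4.39% and 1.497 ± 0.817%. The summed synthase level was 8.96 ± 5.54 FPKM at rest and 61.1 ± 25.5 FPKM after running. These shares use the values that chose the genes and carry no test.

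**Figure D2:**
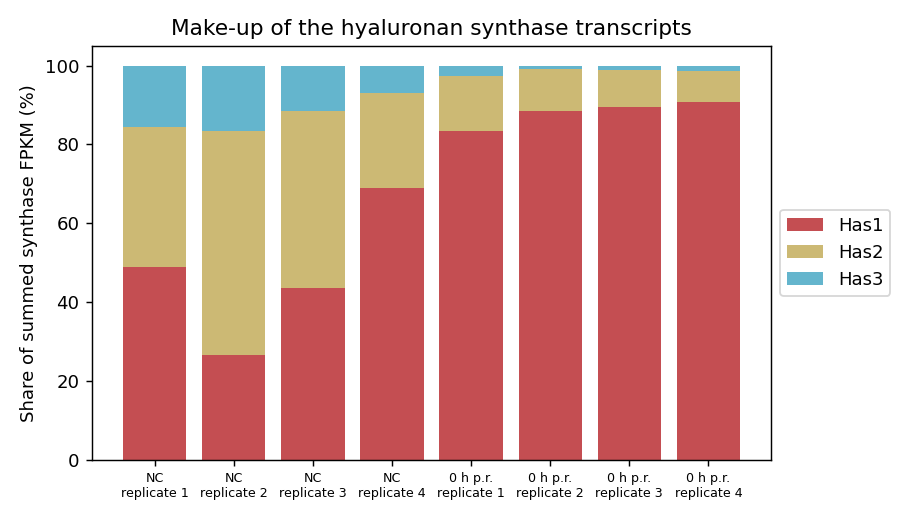
Share of each hyaluronan synthase in the summed FPKM of Has1, Has2 and Has3, in percent, stacked for each of the 8 libraries. Has1 holds 26.7% to 69.1% in NC and 83.3% to 90.9% in the 0 h p.r. libraries.

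Among the binders, Tnfaip6 and Cd44 were higher in every library after running, and Hapln1 and Vcan in most. Tnfaip6 (ENSRNOG00000050792), a secreted protein that crosslinks hyaluronan through heavy chains, had 5.28, 5.48, 8.15 and 7.54 FPKM in NC. After running it had 25.8, 75.7, 46.9 and 60.5 FPKM. The groups did not overlap, and the lowest library after running was replicate 1, as it was for Has1. The means were 6.61 ± 1.45 and 52.2 ± 21.2 FPKM (SD, n = 4), with a log2 difference of 2.81 (SE 0.31, 95% interval 2.12 to 3.501).

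Cd44 (ENSRNOG00000006094), the main surface receptor for hyaluronan, had 18.1, 14.3, 18.1 and 19.8 FPKM in NC. After running it had 34.6, 48.8, 44.0 and 30.6 FPKM, so the groups again did not overlap. The log2 difference was 1.13 (SE 0.17, 95% interval 0.75 to 1.52). Replicate 4 was the lowest Cd44 library after running, where replicate 1 was the lowest for Has1 and Tnfaip6.

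Hapln1 (ENSRNOG00000032002), the link protein that locks proteoglycans onto hyaluronan, had 2.82, 2.80, 10.01 and 8.11 FPKM in NC. After running it had 9.10, 16.6, 14.01 and 38.1 FPKM. Replicate 1 lay within the NC range and replicate 4 stood above the rest, and the log2 difference was 1.63 (SE 0.51, 95% interval 0.50 to 2.77). Vcan (ENSRNOG00000029212), the large proteoglycan of loose and expanding matrix, had 6.54, 5.55, 10.2 and 9.96 FPKM in NC and 9.88, 17.3, 12.7 and 24.1 FPKM after running. Its libraries kept the pattern of Hapln1, with replicate 1 inside the NC range and replicate 4 highest, at a log2 difference of 0.91 (SE 0.29, 95% interval 0.26 to 1.57). The Vcan to Hapln1 ratio was 1.64 ± 0.615 in NC and 0.917 ± 0.203 after running (SD, n = 4).

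Of the breakdown genes, the groups of Hyal1, Hyal2 and Cemip all overlapped, and none passed both thresholds in the limma fit described below. The study, which used DESeq2 at the same thresholds, lists Cemip among its differentially expressed genes immediately after running. Hyal2 (ENSRNOG00000031420), a hyaluronidase anchored to the cell surface that cuts long chains, had 49.0, 49.4, 36.8 and 54.3 FPKM in NC and 53.7, 72.8, 96.6 and 40.9 FPKM after running. The groups overlapped, with replicates 2 and 3 above the NC range and a log2 difference of 0.41 (SE 0.25, 95% interval -0.15 to 0.98). Hyal1 (ENSRNOG00000015858), the lysosomal hyaluronidase, had 8.59, 8.13, 8.86 and 14.9 FPKM in NC and 10.5, 7.17, 9.03 and 9.97 FPKM after running. Its log2 difference was -0.11 (95% interval -0.57 to 0.36), and its sign turned (0.08) without NC replicate 4. Cemip (ENSRNOG00000012442) had 0.831, 1.04, 2.84 and 3.95 FPKM in NC and 3.35, 5.29, 3.78 and 8.18 FPKM after running. Replicates 2 and 4 lay above the NC range, and the log2 difference was 1.19 (SE 0.42, 95% interval 0.25 to 2.14).

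The summed level of Hyal1 and Hyal2 was 57.5 ± 9.65 FPKM in NC and 75.2 ± 23.5 FPKM after running. The ratio of summed synthase to summed hyaluronidase mRNA was 0.0906, 0.0846, 0.196 and 0.243 in NC. After running it was 0.552, 1.02, 0.407 and 1.66, above the NC range in every library. The ratio compares mRNA levels and not the activity of the enzymes.

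Measured against the thresholds of the study, an adjusted p under 0.05 and a fold of at least 2, 3 of the 10 members passed: Has1, Tnfaip6 and Cd44, all higher. The fit across all genes (limma, Benjamini-Hochberg adjustment) put 1.80% of the tested genes past both in that direction. Groups did not overlap, with 0 h p.r. higher, for the same 3 members and for 8.15% of the tested genes. Without overlap in the other direction there were 0 members, and no share over all tested genes was counted for that direction. The difference was positive in 8 of 10 members, with a median of 1.02, and in 49.9% of the tested genes, with a median of -0.001 on the log2 scale. The members were chosen on this contrast, so nothing is read from these counts. Cd44 was no longer past both thresholds in a fit with the replicate number as a term.

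**Figure D3:**
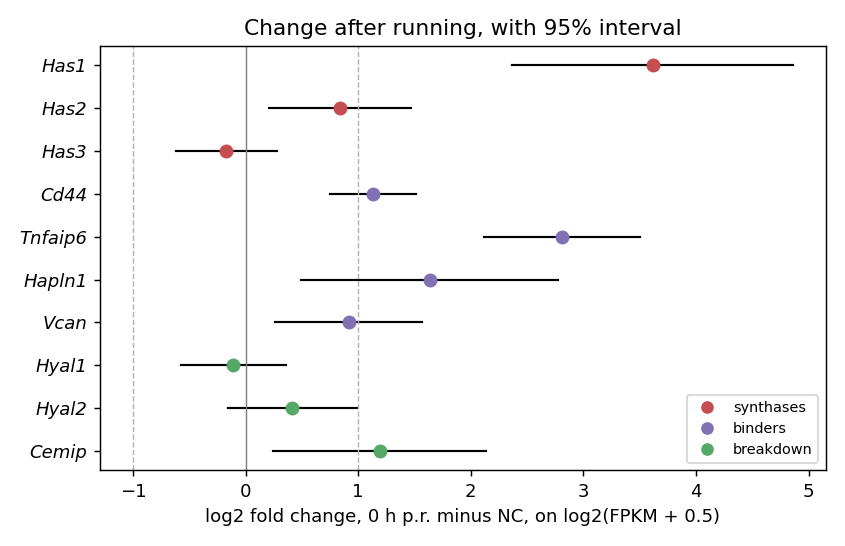
Difference in log2(FPKM + 0.5), 0 h p.r. minus NC, for the 10 hyaluronan genes, with 95% intervals from the fit across all genes and dashed lines at a fold of 2 in either direction. Intervals run from 2.37 to 4.86 for Has1 and from 2.12 to 3.501 for Tnfaip6, and from -0.57 to 0.36 for Hyal1.

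Levels also varied within a group, and a shared order was seen in NC. NC replicates 3 and 4 were both above replicates 1 and 2 in 9 of the 10 members, with Hyal2 the exception, and by small margins for Cd44 (18.14 against 18.07 FPKM) and Hyal1 (8.86 against 8.59 FPKM). This pattern, noticed in the values, held for 19.8% of the tested genes. From the lowest to the highest NC library the range was 8.92-fold for Has1, 4.75-fold for Cemip, 3.58-fold for Hapln1 and 1.39-fold for Cd44. After running, replicate 1 was the lowest library for 5 members and for 27.3% of the tested genes.

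**Figure D4:**
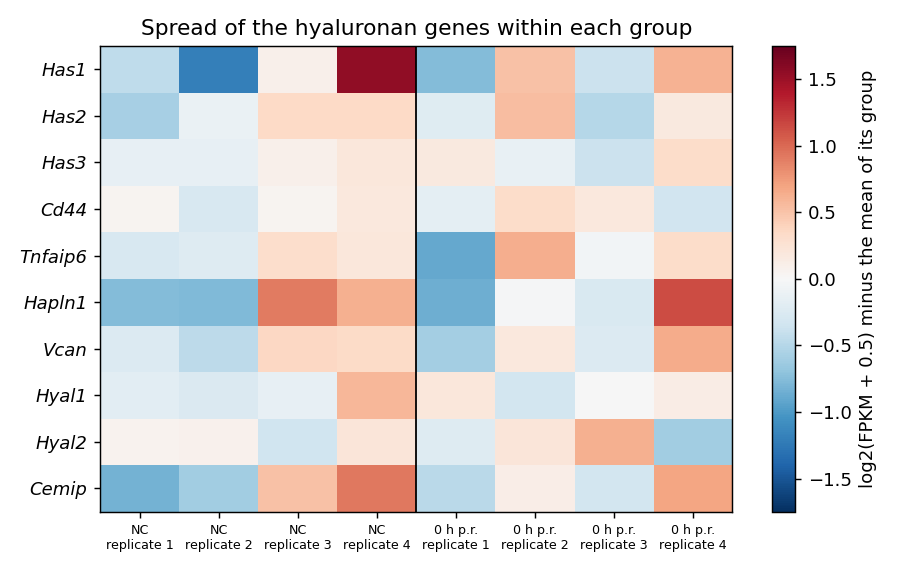
Deviation of each library from its own group mean on the log2(FPKM + 0.5) scale, for the 10 hyaluronan genes in rows and the 8 libraries in columns. NC replicates 3 and 4 lie above replicates 1 and 2 in 9 of the 10 rows, and 0 h p.r. replicate 1 is lowest of its group in 5.

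Markers of other cells and tissues were read beside these values, with calls from the limma fit. The synovial lining list (Prg4, Cd55, Clic5, Tspan15, all with a row) summed to 375, 232, 354 and 772 FPKM in NC and to 432, 876, 687 and 1152 FPKM after running. This sum was mostly Prg4 (lubricin), at 197 to 680 FPKM in NC and 355 to 1030 FPKM after running, and its lowest and highest libraries in each group were those of Has1. Clic5 and Tspan15 were ordered otherwise after running, with Clic5 lowest in replicate 4 (40.6 FPKM) and Tspan15 highest in replicate 1 (5.90 FPKM). Cd55 was the 1 gene of the 4 that passed both thresholds, higher, at 18.8 ± 6.16 FPKM in NC and 51.8 ± 19.96 FPKM after running (SD, n = 4). Of the cartilage list, 5 of 7 genes had a row, with a summed 12.8 to 56.8 FPKM in NC and 32.9 to 212 FPKM after running. None of the 3 tested genes passed in limma. The study, with DESeq2, lists Col2a1 and Sox9 among its differentially expressed genes immediately after running. Mean levels in NC and after running were 18.8 and 102 FPKM for Col2a1, 4.72 and 12.9 FPKM for Sox9, and 14.8 and 14.2 FPKM for Col11a2. The skeletal muscle list (6 of 8 genes with a row) summed to 3322 to 5320 FPKM in NC. After running it summed to 26550, 4560, 12420 and 794 FPKM. The adipocyte list summed to 3066 to 6167 FPKM in NC and 1034 to 2267 FPKM after running. Of its 7 genes 5 were past both, lower, as were 124 of the 13863 tested genes. The macrophage list summed to 352 to 719 FPKM in NC and 433 to 1029 FPKM after running, and the leukocyte list to 23.0 to 40.4 and 16.6 to 38.4 FPKM. Of the neutrophil list 4 of 5 genes had a row, summing to 1.44 to 4.67 FPKM in NC and 1.51 to 2.24 FPKM after running, with 1 gene past both in each direction. The endothelial list summed to 175 to 231 FPKM and 154 to 231 FPKM, and the lymphatic list to 33.2 to 46.5 and 35.2 to 53.3 FPKM. No listed marker with a row was at 0 in all libraries, and the part of these tissues in the differences was not tested. In bulk tissue, fewer cells of a type and less RNA per cell cannot be told apart.

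The defining markers of tendon were present in every library, beside those of muscle. All 9 tenocyte markers had a row and none passed both thresholds in limma. They summed to 3878 to 7738 FPKM in NC and 4244 to 7614 FPKM after running. The skeletal muscle sum was above the tenocyte sum in 0 h p.r. replicates 1 (26550 against 6596 FPKM) and 3 (12420 against 4244 FPKM). The muscle sum was close to the tenocyte sum in NC replicates 2 (5191 against 5314 FPKM) and 4 (3659 against 3878 FPKM). Tnmd (tenomodulin) was at 224 ± 106 and 177 ± 61.7 FPKM, Scx (scleraxis) at mean levels of 30.1 and 41.8 FPKM, and Col1a1 (the main chain of type I collagen) at 2380 and 2409 FPKM.

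The genes most like Has1 were found by the root mean square difference between gene-centred log2(FPKM + 0.5) values over the 8 libraries, a smaller value meaning a closer pattern. They were Nr4a1 (0.48), an orphan nuclear receptor, Hbegf (0.62), a ligand of the EGF receptor, Socs3 (0.67), a feedback inhibitor of cytokine signalling, Gprc5a (0.70), an orphan receptor, and Fos (0.71), an AP-1 subunit. Nr4a1 was at 21.9 ± 10.8 FPKM in NC and 231 ± 75.9 FPKM after running (SD, n = 4). Among the members Tnfaip6 was nearest to Has1 (0.74), followed by Hapln1 (1.13) and Cemip (1.28). Has2 was nearer to Vcan (0.32) than to Has1 (1.52). The libraries share their groups and depth, so these values are a description with no test.

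The other genes of the pathway were listed by role with earlier results known, as 58 symbols of which Tmem2 is an older name of Cemip2. Of the symbols, 46 had a row, 43 were tested and 9 passed both thresholds, all higher, against 1.80% of all tested genes. A positive difference was found in 26 of the 43, with a median of 0.15 on the log2 scale, against 49.9% of all tested genes, with a median of -0.001. The lists were chosen with these results known, so nothing particular to them is read from the counts. In the precursor list 5 of 11 tested genes passed, and all 11 had a positive difference with a median of 1.09 on the log2 scale. Uap1, which makes UDP-N-acetylglucosamine, rose from 52.7 ± 13.1 to 198 ± 78.2 FPKM (SD, n = 4), a log2 difference of 1.85 (SE 0.30, limma adjusted p = 0.0114). Gfpt2, a form of the enzyme that opens the hexosamine pathway, rose from 26.3 ± 17.6 to 91.6 ± 41.9 FPKM (1.89, adjusted p = 0.0418), and Gnpnat1, a later step, from 9.04 ± 1.57 to 21.2 ± 6.74 FPKM (1.14, adjusted p = 0.0284). Ugdh, the enzyme that makes UDP-glucuronic acid, rose from 33.0 ± 7.27 to 72.6 ± 23.3 FPKM (1.09, adjusted p = 0.0329). Hk2, an inducible hexokinase, rose from 5.75 ± 2.15 to 20.5 ± 9.16 FPKM (1.69, adjusted p = 0.0441). Hexokinases, Gpi and Pgm1 also serve glycolysis and glycogen. Gfpt1, the other opening enzyme, differed by 0.55 (adjusted p = 0.132) and Pgm3 by 0.08 (adjusted p = 0.894).

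Leaving out each library in turn showed how far these calls hung on single libraries, in a list chosen with results known. Uap1 kept an adjusted p of 0.0402 or lower in all 8 fits, although its call was lost with the replicate number as a term (adjusted p = 0.06). Ugdh lost its call in 5 of 8 fits (highest adjusted p 0.099), Gnpnat1 in 6 (0.096), and Gfpt2 and Hk2 in 7 each (0.116 and 0.122). Quantile scaling also ended the calls of Ugdh (limma adjusted p = 0.0626) and Gfpt2 (adjusted p = 0.0644). Over all 5 lists the count fell from 9 to 4 without NC replicate 1, 2 or 3, or without 0 h p.r. replicate 2 or 3.

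Proteases that cut versican and related proteoglycans gave 2 calls among 6 tested genes. Adamts1 rose from 15.2 ± 9.95 to 127 ± 33.8 FPKM (SD, n = 4), a log2 difference of 3.15 (SE 0.38, limma adjusted p = 0.00329). Adamts4 rose from 5.17 ± 1.28 to 31.6 ± 14.2 FPKM (2.40, adjusted p = 0.00599). Both calls held in all 8 fits that left out a library, with adjusted p of up to 0.0167 and 0.0259. Adamts9 differed by 1.98 with 3 of 4 libraries above the NC range (adjusted p = 0.073).

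Of the Cd44 linkers and sheddases, 1 of 8 tested genes passed. Ezr (ezrin), which ties Cd44 to the actin cortex, rose from 13.2 ± 2.18 to 32.2 ± 7.90 FPKM (SD, n = 4), a log2 difference of 1.24 (SE 0.19, limma adjusted p = 0.00928, up to 0.0365 without 1 library). Msn (moesin), a relative of ezrin, differed by 0.39 (adjusted p = 0.104). Spp1 (osteopontin), a ligand of Cd44, differed by 1.37 (limma adjusted p = 0.0769). The study, with DESeq2, lists Spp1 among its differentially expressed genes immediately after running. Among the other breakdown genes 1 of 5 tested passed. Cemip2 (TMEM2), a transmembrane relative of Cemip tied to hyaluronan breakdown, rose from 6.26 ± 2.25 to 17.6 ± 6.49 FPKM (1.42, adjusted p = 0.0404), and this call was lost in 7 of the 8 fits without 1 library (adjusted p up to 0.112).

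Among the other hyaluronan binders none of 13 tested genes passed both thresholds in limma, and 5 had a positive difference. Acan (aggrecan), the hyaluronan-bound proteoglycan of cartilage, was at 15.8 ± 11.4 FPKM in NC and 63.5 ± 46.3 FPKM after running (2.06, limma adjusted p = 0.0998). The summed cartilage markers given above come from the same libraries. The study, with DESeq2 at the same thresholds, reports Acan as up-regulated immediately after running. Habp2, a serine protease, differed by -0.68 (adjusted p = 0.382). Picked after their values were seen, Tlr2 (0.61, adjusted p = 0.0374) and Layn (-0.65, adjusted p = 0.0499) changed by less than the fold of 2, and leaving out 1 library took their adjusted p to up to 0.12 and 0.146. Lyve1, the hyaluronan receptor of lymphatic vessels and some macrophages, was at 43.3 ± 4.19 FPKM in NC and 42.1 ± 14.4 FPKM after running (limma adjusted p = 0.858).

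**Figure D5:**
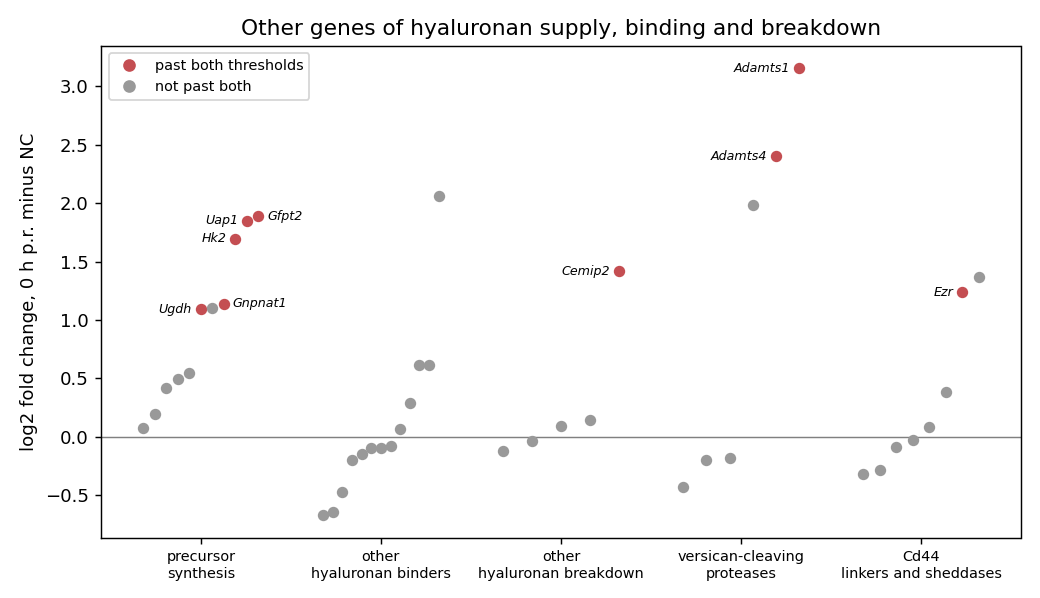
Difference in log2(FPKM + 0.5), 0 h p.r. minus NC, for the 43 tested pathway genes in 5 lists, with the 9 genes past both thresholds coloured and named. All 9 lie above 1, with Adamts1 highest at 3.15, and no gene of the other binders is coloured.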

How the data were processed

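RNA-seq libraries of 4 NC and 4 0 h p.r. Achilles tendons were grouped by the labels. According to the methods and the submitters' processing notes, the authors prepared stranded libraries from polyadenylated RNA, aligned reads to Rnor_6.0 with HISAT2 2.1.0, counted them per gene with featureCounts 1.6.3 and deposited FPKM values scaled between libraries. The table also deposited p-values and log2 fold changes of the authors' own comparison with DESeq2 1.30.1, which were not used. The number of per-sample columns left without a sample was 0. Depth per library is the sum of whole reads recovered from the FPKM steps (15589 of 15590 genes within 0.02 reads). It covers the listed genes only, and PCR copies make it a limit on counting error alone. No pair of libraries was a near copy.

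FPKM values were taken to log2(FPKM + 0.5). Genes at 0.5 FPKM or more in at least 4 libraries were compared in R 4.3.3 with limma 3.58.1 (lmFit, eBayes with a trend), two-sided, with no covariate and Benjamini-Hochberg adjustment over 13863 genes. P-values measure the spread between these samples, which may be technical. Calls needed an adjusted p under 0.05 and a fold of at least 2. Summaries and motif searches used Python 3.11.15 with numpy 2.4.6, and the fit was tested on simulated data. The members and lists were chosen with earlier results of these data known. Named were all members, the genes of each pathway list past both thresholds (otherwise its 2 largest differences), the 5 genes most like Has1, and Tnmd, Scx and Col1a1. Further pathway genes are named beside them for their role, after their values were seen. Alternatives were pseudocounts of 0.1 and 1, no filter or a mean of at least 2 FPKM, quantile scaling, array weights, voom on the recovered reads, the replicate number as a block, the adjusted p alone, and leaving out each library.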

Additional observations from a re-analysis of the deposited data

Results flagged for a closer look

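Hyal1 in NC replicate 4 stood apart from the other NC libraries, at 14.9 FPKM against 8.13 to 8.86 FPKM. Its gap to the nearest library, divided by the range of the group, passed the 95% critical value of Dixon for 4 samples. It was the only one of the 20 groups of 4 examined (10 genes, 2 groups) to do so, and chance flags about 1 in 20 such groups.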

How the results depend on the processing

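Over all genes, 374 passed both thresholds in limma and 793 passed the adjusted p alone. The study, with DESeq2 at the same thresholds, reports more genes, even among protein-coding genes alone. A gene not past both here may therefore be called there. Leaving out 1 library gave 191 (without 0 h p.r. replicate 2) to 504 (without 0 h p.r. replicate 4) past both. Of the pathway genes 9 passed, and 4 to 8 did so without 1 library. Same-numbered NC and 0 h p.r. libraries did not deviate together (correlations of -0.141, -0.0708, 0.0717 and 0.00562). These values gave no sign of pairing by number, but the labels do not say whether the numbers share a step of processing. With the replicate block, 212 genes, 4 pathway genes and 2 members passed, Cd44 being the member lost. The pathway genes were Gnpnat1, Adamts1, Adamts4 and Ezr. In each other alternative 3 members passed. Each alternative moved the members' log2 differences by less than 1 SD between replicates, and without 1 library they ranged from 3.21 to 4.13 for Has1, 2.60 to 3.11 for Tnfaip6 and 1.02 to 1.25 for Cd44. Has3 was left out by the filter on a mean of 2 FPKM. The fewest reads behind a member's value were 27 (Has1, NC replicate 2) and 44 (Has3, after running). A pseudocount of 0.1 took the log2 difference to 3.79 for Has1, 0.93 for Has2, -0.25 for Has3 and 1.39 for Cemip.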
